A study of Mus musculus with 8 samples.

Results

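The miR-9 hairpin gives rise to a pair of mature microRNAs, one from each arm of its stem. miR-9 comes from the 5′ arm and miR-9*, now called miR-9-3p, from the 3′ arm. Both were measured on one-colour Agilent miRNA arrays in basal progenitors from mouse embryos. The members were the mouse probes whose systematic name in the scanner files is mmu-miR-9 or mmu-miR-9*. They comprised 2 of the 611 mouse miRNAs, 4 of 1759 mouse probes and 40 of the 12220 mouse spots on each array. Basal progenitors are cells of the developing cortex that divide in the subventricular zone and give rise to neurons, and here they were sorted by fluorescence from cortex at embryonic day 13 (E13) or 16 (E16). Each stage had 4 arrays, 1 per replicate, and the description of every sample carries the tag WT. No treatment is named for either stage. The series' design text counts 4 biological replicates and 3 litters per stage, so that some replicates may share a litter, and p-values measure no more than the spread seen among these arrays.

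In the processing of a hairpin, Drosha and Dicer release a short duplex of both arms, and one strand of it is usually kept by an Argonaute protein while the other, written with a star in older nomenclature, is often degraded. The kept strand recognises target mRNAs mainly through its seed, bases 2 to 8. miR-9 is abundant in neural progenitors of the developing brain and is known for targets such as the orphan nuclear receptor Tlx and the repressor REST. miR-9* is known to target CoREST, a partner of REST.

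The mature sequences, from RefSeq with the GRCm38.p6 build, are shown 5′ to 3′ with the seed in capitals, since the seeds show that the arms read different target sites.
miR-9: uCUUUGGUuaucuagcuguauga
miR-9*: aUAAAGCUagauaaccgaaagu
Neither seed was shared with any other of the 1679 distinct mature mouse miRNAs of that table. Bases 6 to 17 of miR-9 can pair without a gap with bases 5 to 16 of miR-9*, a run of 12 Watson-Crick pairs.

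RefSeq places the hairpin at 3 loci of GRCm38.p6, all on the plus strand, and their sequences are shown because both mature arms (capitals) are identical at all 3 and only the loop and the ends differ.
Mir9-1: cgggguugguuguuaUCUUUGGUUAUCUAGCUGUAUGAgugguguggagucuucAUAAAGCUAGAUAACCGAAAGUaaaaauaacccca
Mir9-2: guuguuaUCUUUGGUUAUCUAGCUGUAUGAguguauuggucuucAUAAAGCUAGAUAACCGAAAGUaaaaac
Mir9-3: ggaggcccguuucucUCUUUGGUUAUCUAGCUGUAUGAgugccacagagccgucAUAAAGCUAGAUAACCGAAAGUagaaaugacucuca
Mir9-1 lies at chr3:88215598-88215686 within the long non-coding RNA gene Gm3764. Mir9-2 lies at chr13:83738814-83738885 within the long non-coding RNA gene C130071C03Rik. Mir9-3 lies at chr7:79505264-79505353 within its host gene Mir9-3hg. Because the arms are identical, the arrays measured the sum over the 3 loci and cannot assign signal to one of them.

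Each arm had a longer probe of 19 bases and a shorter one of 18, each printed in 10 spots per array. The probe sequences are shown 5′ to 3′ because they fix what was measured, with the stretch of 12 bases that also occurs in the other arm in capitals.
miR-9, longer: tcatacAGCTAGATAACCa
miR-9, shorter: tcatacAGCTAGATAACC
miR-9*, longer: actttcGGTTATCTAGCTt
miR-9*, shorter: actttcGGTTATCTAGCT
The probes were complementary to the 3′ part of their miRNA, from base 5 or 6 to base 23 in miR-9 and from base 4 or 5 to base 22 in miR-9*, so that a mature form shortened or lengthened at its 5′ end could not be told from the full form. The scanner files place the longer probe of miR-9 at chr3:88019539-88019557, chr7:86650169-86650187 and chr13:83878430-83878448 of mm9. Set without gaps against the other mature mouse miRNAs, both miR-9 probes came closest to miR-9b-5p, which RefSeq annotates on the minus strand of the same loci (uucgguuaucuagcuuuauga), with 1 mismatch for the shorter probe and 2 for the longer. The next best match of a miR-9 probe had 6 mismatches. Both miR-9* probes came closest to miR-9b-3p (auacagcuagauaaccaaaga), with 4 mismatches for the shorter probe and 5 for the longer, counting a probe base beyond the end of the miRNA as a mismatch. The arrays carry no probe named for miR-9b.

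All 320 spots of these 4 probes on the 8 arrays were well above background and none was saturated. Between replicate spots of a probe on an array the coefficient of variation ran from 2.46% to 21.1%, with a median of 6.12%. For the labelled origin only miRNA markers could be looked at, since the arrays measure no mRNA. No marker of basal progenitors was among them, so that they do not check the sorted cell type. The neuron-associated miR-124 and miR-128 were well above background on every array. The arrays carry probes for 27 markers of blood, vessel, leukocyte, muscle, epithelial, mesenchymal or hindbrain cells, and none was well above background on any array. Those 27 markers held 0.00875% to 0.0201% of the summed signal at E13 and 0.0136% to 0.0388% at E16. Across the arrays between 76 and 206 miRNAs were detected, and the 75th percentile of signal, used for scaling, ran from 109 to 748. The slides held E16 replicate 1 (slide 1), E13 replicates 1 and 2 with E16 replicates 2 and 3 (slide 2), and E13 replicates 3 and 4 with E16 replicate 4 (slide 3). Scan and slide coincided. Slide row split exactly by stage, with row 2 for E13 and row 1 for E16, and its part cannot be told apart from that of stage.

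The longer miR-9* probe gave more signal than the longer miR-9 probe on every array. In processed signal, the longer miR-9 probe stood at 829, 1214, 2560 and 1589 intensity units on E13 replicates 1 to 4. On E16 replicates 1 to 4 it stood at 2921, 3457, 1599 and 373. E16 replicate 2, the array with the highest 75th percentile, was the brightest for miR-9, and E16 replicate 4, with the lowest, the dimmest. The longer miR-9* probe gave 1339, 1633, 5389.6 and 2970.0 units at E13. At E16 it gave 7699, 7331, 3551 and 813. Before scaling, the stages overlapped for both arms.

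**Figure D1:**
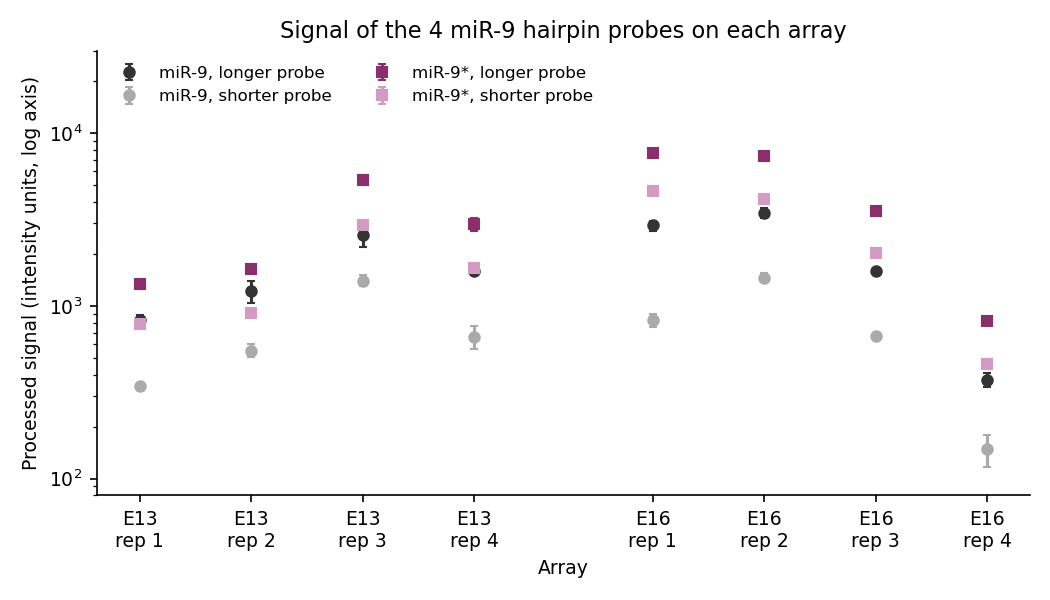
Processed signal (intensity units, log axis) of the longer and shorter probe of each arm on each of the 8 arrays; points are means of up to 10 spots and bars the SD between spots. The longer miR-9* probe is the highest and the shorter miR-9 probe the lowest on every array, and all 4 are lowest on E16 replicate 4, where the longer miR-9 probe stood at 373.

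For comparison between arrays, each signal was divided by the array's 75th percentile over probes detected on all 8 arrays, and the log2 was taken. On this log2 scale the miR-9 level was 2.35, 1.94, 2.38 and 2.44 on the E13 arrays. It was 2.26, 2.21, 2.51 and 1.78 on the E16 arrays. E13 replicate 2 and E16 replicate 4 were the low arrays of their stages, and the ranges overlapped almost fully. The mean was 2.28 ± 0.23 at E13 and 2.19 ± 0.30 at E16 (SD, n = 4 each). The log2 difference (E16 minus E13) was -0.09 (SE 0.20, 95% confidence interval -0.54 to 0.36, limma adjusted p = 0.76), or 0.940-fold with an interval from 0.687-fold to 1.29-fold.

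The log2 miR-9* level was 3.04, 2.37, 3.46 and 3.34 at E13. At E16 it was 3.66, 3.29, 3.66 and 2.90. The same arrays, E13 replicate 2 and E16 replicate 4, were again low, and the stages overlapped. The mean was 3.05 ± 0.49 at E13 and 3.38 ± 0.36 at E16 (SD, n = 4 each). The log2 difference was 0.33 (SE 0.28, 95% confidence interval -0.31 to 0.96, limma adjusted p = 0.37), or 1.25-fold with an interval from 0.809-fold to 1.94-fold. Of the 152 miRNAs tested, 32.9% passed at an adjusted p under 0.05, and neither of the 2 arms did. The stages did not overlap for 38.2% of the tested miRNAs, and they overlapped for both arms. These intervals do not show that the levels were equal between the stages.

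The level of each arm changed its call with the scaling. With the percentile taken over all mouse probes, most of which are near background, both arms passed as higher at E16. On the log2 scale miR-9 was at 0.73 and miR-9* at 1.15. Another divisor per array shifts all miRNAs above the lower limit of signal alike, and the median of all tested miRNAs moved from -0.40 to 0.42. Under quantile normalization miR-9* was at -0.06. Within slide 2 the arms were at 0.21 and 0.77 and did not pass. On slide 3 they were at -0.63 and -0.50, but there E16 has replicate 4 alone, which is assumed to vary like the pair of E13 arrays, so that these are given as values.

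**Figure D2:**
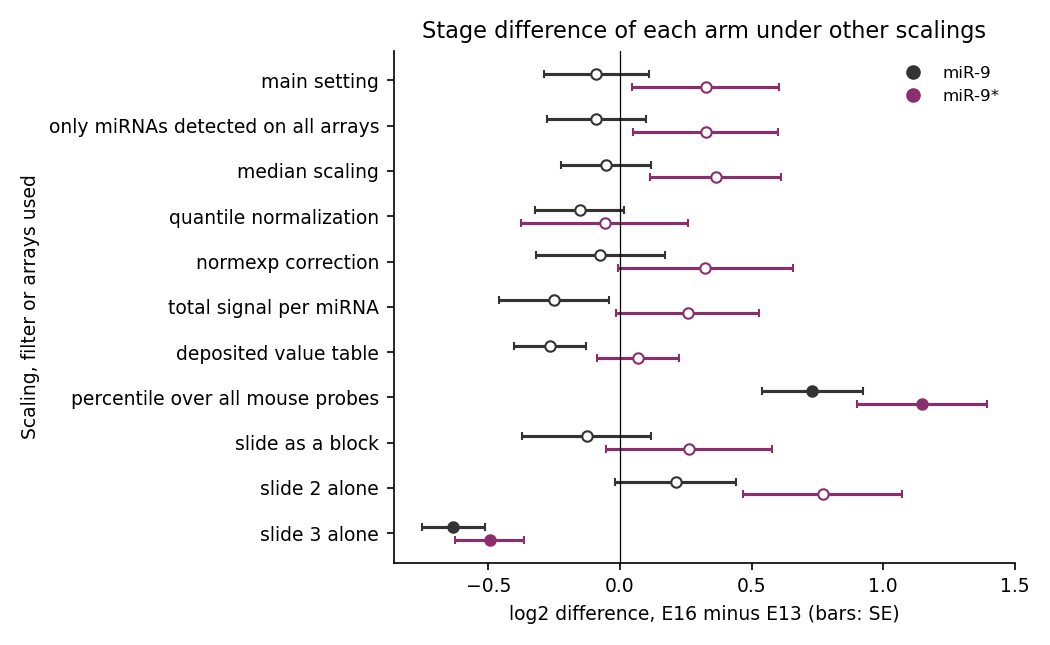
The log2 difference (E16 minus E13) of miR-9 and miR-9* under the main setting, other scalings and filters, and other use of the slides; bars are standard errors from limma and filled points had an adjusted p under 0.05, which on slide 3 rests on 1 E16 array. The differences of miR-9 and miR-9* range from -0.63 and -0.50 on slide 3 alone to 0.73 and 1.15 with scaling by all mouse probes.

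The ratio of the arms within an array does not depend on scaling by a single factor per array. It is a ratio of the signals of different probes, so that its size is not a ratio of molecules, but its change between stages can be compared. With the longer probes, miR-9* over miR-9 was 1.62 ± 0.046, 1.35 ± 0.068, 2.11 ± 0.105 and 1.87 ± 0.054 on E13 replicates 1 to 4 (SE from replicate spots). At E16 it was 2.64 ± 0.062, 2.12 ± 0.057, 2.22 ± 0.036 and 2.18 ± 0.068. Every E16 array lay above every E13 array, but the nearest arrays, E13 replicate 3 and E16 replicate 2, differed by less than their spot error. The mean log2 ratio was 0.77 ± 0.28 at E13 and 1.19 ± 0.14 at E16 (SD, n = 4 each), a log2 difference of 0.42 or a 1.33-fold higher ratio. The two-sided exact permutation test over 70 assignments gave p = 0.029, the smallest it can give. The limma fit planned for hairpins with both arms well above background on all 8 arrays held only 2 hairpins, miR-9 and let-7d. In it the miR-9 arm ratio did not pass (SE 0.17, 95% confidence interval 0.02 to 0.81, adjusted p = 0.080). None of these 2 hairpins was called (0%), the stages did not overlap in 1 of them (50%), and the unadjusted p was 0.040 for miR-9.

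The E13 arm ratios were lower on slide 2 than on slide 3, while the E16 ratios of these slides lay close together. Within slide 2 the E13 arrays had ratios of 1.62 and 1.35 against 2.12 and 2.22 at E16, a log2 difference of 0.56. Within slide 3 the E13 arrays had 2.11 and 1.87 against 2.18 on the single E16 array, a log2 difference of 0.14. With the slide as a fixed block, in which the lone array of slide 1 adds nothing to the comparison, the log2 difference was 0.39 (limma adjusted p = 0.093). Leaving out any 1 of the E16 arrays gave an exact permutation p of 0.057, with log2 differences from 0.35 to 0.45. Leaving out any 1 of the E13 arrays gave an exact permutation p of 0.029, with log2 differences from 0.30 to 0.52. The stages did not overlap in any of these sets. With 1 array fewer the test has fewer assignments, and its p moves in coarser steps. The p of 0.057 without an E16 array therefore does not by itself show a weaker separation. The part of the slide in the difference was not tested further. With normexp background correction the exact permutation p was also 0.057, at a log2 difference of 0.40. Quantile normalization, which changes bright and dim probes by different factors, gave a log2 difference of 0.096 (exact permutation p = 0.77).

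The order of the stages was the same with the shorter probes. With the shorter probe of both arms the ratio ran from 1.66 to 2.50 at E13 and from 2.84 to 5.60 at E16, a log2 difference of 0.73. E16 replicate 1 held the 5.60, and the other E16 arrays reached at most 3.11. With the shorter miR-9 probe against the longer miR-9* probe the ratio ran from 2.96 to 4.49 and from 5.03 to 9.33. E16 replicate 1 again stood highest, and the other E16 arrays reached at most 5.51. With the longer miR-9 probe against the shorter miR-9* probe the ratio ran from 0.751 to 1.15 and from 1.20 to 1.58. In this last combination miR-9* was the dimmer arm on 2 of the 4 E13 arrays, so that which arm was brighter depended on the probe. These 4 combinations share spots and arrays and are not independent of each other. Each gave the smallest p of the exact permutation test, 0.029.

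**Figure D3:**
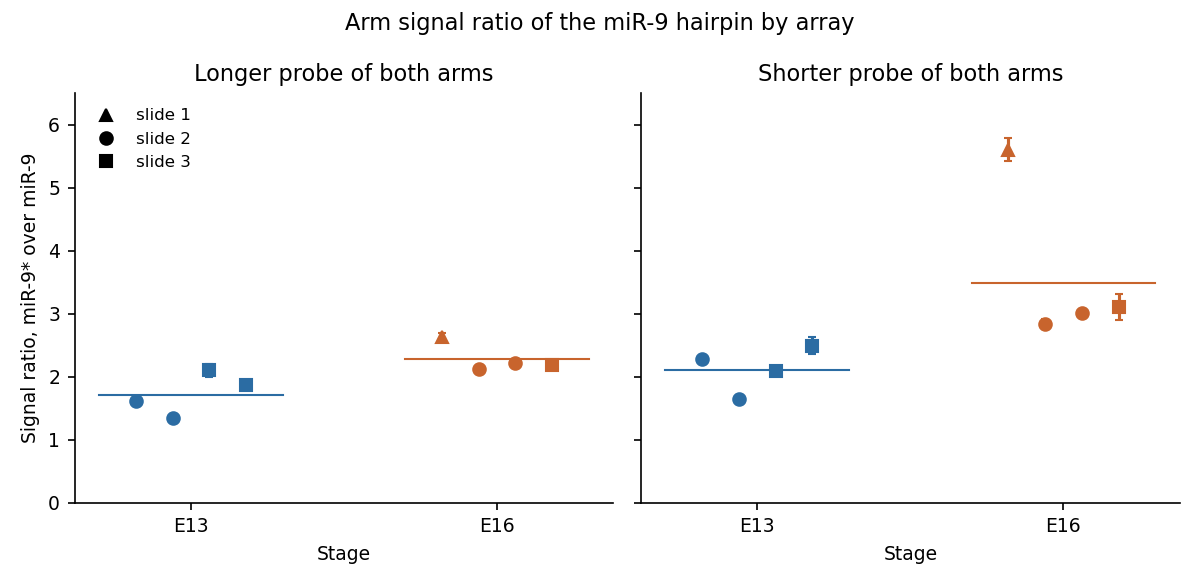
Signal ratio of miR-9* over miR-9 on each array, with the longer probe of both arms (left) and the shorter probe of both arms (right); bars are SE from replicate spots, lines are geometric means, and the symbols give the slide. E16 arrays lie above E13 arrays in both panels, from 2.12 to 2.64 against 1.35 to 2.11 with the longer probes, and E16 replicate 1 on slide 1 stands highest.

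Between the probes of one arm the values also differed. The longer miR-9* probe was 1.78 ± 0.054 times as bright as the shorter one at E13 and 1.74 ± 0.051 times at E16 (SD, n = 4 each), and this relation varied little. The longer miR-9 probe was 2.21 ± 0.27 times as bright as the shorter one at E13 and 2.70 ± 0.56 times at E16. E16 replicate 1, at 3.54, was the array that stood out. The log2 differences between stages in these probe relations were -0.04 for miR-9* and 0.28 for miR-9 (two-sided exact permutation tests, p = 0.29 and 0.17, both 0.29 after Benjamini-Hochberg adjustment over the 2 arms). Taken alone, the shorter miR-9 probe had a log2 difference of -0.36 (SE 0.24) and the shorter miR-9* probe of 0.36 (SE 0.28), and neither passed in a limma fit over 245 probes (adjusted p = 0.26 and 0.34).

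Other hairpins give a scale for this change. Among 167 arm pairs named on the arrays, 17 had at least 4 of the 8 arrays with signal well above background for each arm, a set chosen after seeing that only 2 met the stricter rule. In all 17 the ratio was taken as star over unstarred or 3p over 5p. Of these, 2 were called higher and 2 lower at E16 (11.8% each), and 5 (29.4%) had stages that did not overlap. miR-9 was among the 5 but was not called (limma adjusted p = 0.084). Its log2 difference of 0.42 lay within a range from -0.79 (miR-124) to 1.50 (miR-7a) over the 17. Differences larger in size than that of miR-9 were seen in both directions. The signed median of the 17 was 0.18, in which rises and falls offset each other, so that it gives no typical size. The sign also depends on which arm is named star or 3p. The called hairpins were miR-7a at 1.50 and miR-324 at 0.53, both higher, of which miR-7a* was well above background on only 1 E13 array, so that the size for miR-7a is uncertain, and miR-30a at -0.63 and miR-30e at -0.57, both lower. miR-9 was also 1 of 5 hairpins whose star or 3p arm had the brighter probe at E13, with miR-17, miR-340, miR-342 and miR-532.

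**Figure D4:**
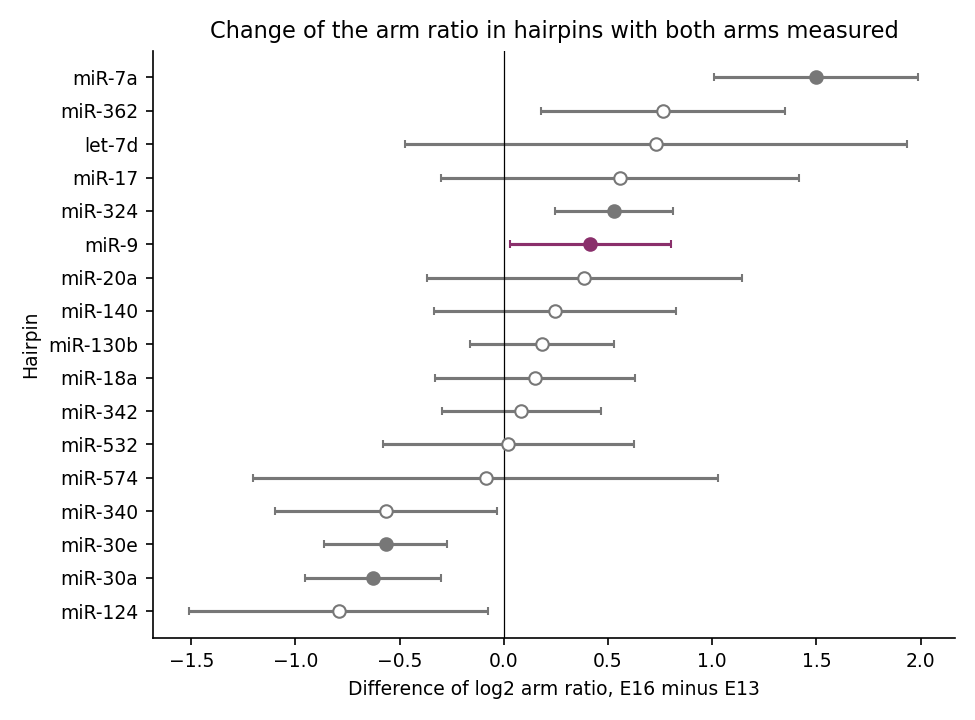
Difference of the log2 arm ratio (E16 minus E13) for 17 hairpins whose arms were each detected on 4 or more arrays; bars are 95% confidence intervals from limma and filled points mark hairpins whose stages do not overlap. miR-9, at 0.42, lies among the positive differences, below miR-7a at 1.50.

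Both arms were among the brightest probes on every array. Ranked by signal among the miRNAs detected on an array, miR-9* was at 3, 3, 1 and 1 on the E13 arrays and at 2, 2, 2 and 3 on the E16 arrays. miR-9 was at 4, 5, 5 and 5 at E13 and at 4, 5, 4 and 7 at E16. Neither mean rank differed beyond the spread of the arrays, with a difference of 0.25 for each arm (two-sided exact permutation test, p = 1 for each, also after adjustment). Over the 75 miRNAs that every array detected, the order by mean rank began with miR-125b-5p (1.38, range 1 to 2), miR-9* (2.13, 1 to 3), miR-720 (3.25, 1 to 7), miR-9 (4.88, 4 to 7) and miR-19b (5.25, 3 to 8), followed by let-7c (7.63, 3 to 13) and miR-130a (9, 7 to 12). Each of these ranges overlapped that of the next miRNA, so that neighbours were not separated. Ranks compare different probes, whose response to their targets can differ.

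**Figure D5:**
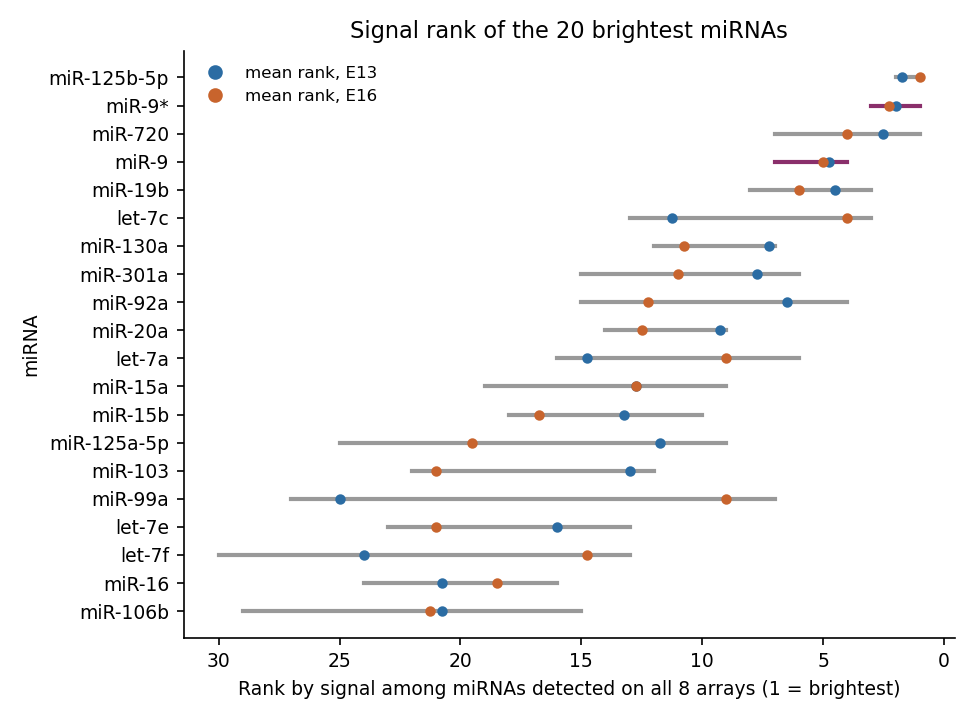
Rank by processed signal of the 20 brightest of 75 miRNAs detected on all 8 arrays; grey or purple lines span the lowest and highest rank over the arrays and points are stage means. miR-9* (ranks 1 to 3) and miR-9 (ranks 4 to 7) hold narrow ranges, while let-7c runs from 3 to 13.

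Of the signal summed over the miRNAs detected on an array, miR-9* held 8.09%, 5.37%, 10.74% and 10.2% at E13. At E16 it held 11.1%, 9.18%, 11.7% and 6.77%. miR-9 held 5.01%, 3.99%, 5.10% and 5.44% at E13 and 4.20%, 4.33%, 5.25% and 3.102% at E16. Both arms together made up 9.37% to 15.8% of the signal at E13 and 9.87% to 16.9% at E16. The mean share of miR-9 was 4.88 ± 0.62% at E13 and 4.22 ± 0.88% at E16 (SD, n = 4 each; difference -0.66 percentage points, two-sided exact permutation test, p = 0.34, adjusted p = 0.54). That of miR-9* was 8.59 ± 2.43% and 9.67 ± 2.20% (SD, n = 4 each; difference 1.08 percentage points, exact permutation p = 0.54, adjusted p = 0.54). The direction of both differences changed with the slide. They were 0.29 and 3.68 points within slide 2 and -2.17 and -3.68 points within slide 3, which rests on E16 replicate 4 for its stage.

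The miRNAs most like each arm were taken as those with the smallest SD over the 8 arrays of the log2 ratio to it, among the 74 other miRNAs detected on every array. For miR-9 these were miR-19b (SD 0.12), miR-22 (0.15), miR-30a (0.17), miR-24 (0.19) and miR-130a (0.20). For miR-9* they were miR-30e (0.11), the star arm miR-181a-1* (0.15), miR-30b (0.18), miR-15a (0.19) and miR-30a (0.21). The lists share only miR-30a. The SD of the ratio between the arms was 0.30. By it miR-9* was 25th of 74 in likeness to miR-9, and miR-9 was 12th of 74 in likeness to miR-9*. This SD was 0.22 without E13 replicate 2, 0.40 with the mean of both probes of each arm and 0.50 under quantile normalization. These values describe the same 8 arrays and carry no test.

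A list of 17 miRNAs usually discussed with miR-9 in neurogenesis gives its surroundings. Of these, 16 were matched by name and 14 tested, of which 3 were higher and 6 lower at E16, and 5 did not pass, with a median log2 difference of -0.41 against -0.40 for all tested miRNAs. Among all tested miRNAs 7.24% were called higher and 25.7% lower. The miRNAs that rose were let-7b, a developmental timer that also targets Tlx, with a log2 difference of 2.66 (SE 0.28), miR-125b-5p at 1.04 (SE 0.17) and miR-181a at 0.85 (SE 0.15). Those lower were miR-7a at -1.86 (SE 0.18), miR-17 at -1.03 (SE 0.30), miR-137 at -1.02 (SE 0.30), miR-124* at -0.86 (SE 0.19), miR-92a at -0.66 (SE 0.18) and miR-153. miR-153 was detected on every E13 array but never at E16, so that its size is only a bound and is not given. miR-7a, miR-137 and miR-124* were each detected on 3 of the 4 E16 arrays, and miR-17 on 3 arrays of each stage. Scaling by all mouse probes gave 5 higher and 2 lower, against 46 and 16 of all 152 tested miRNAs. Normexp correction gave 2 and 0, against 5 and 2 of the 152. In the deposited values 9 were tested, of which 3 were higher and 1 lower, against 13 and 11 of all 86 there. Among miRNAs detected on all arrays 8 were tested, of which 3 were higher and 1 lower, against 9 and 10 of all 75. Leaving out E13 replicate 1 gave 3 higher and 3 lower, against 9 and 28 of the 152. Slide 2 alone gave 3 and 3, against 9 and 24. The members that did not pass were let-7d (0.49), miR-19b (-0.18), miR-128 (-0.15), miR-124 (-0.07) and miR-34a (-0.64).

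miR-124 and miR-128, which mark neurons, had a larger SD between E16 arrays than either arm. At E13 the SD of both was smaller than that of miR-9* (0.49) and larger than that of miR-9 (0.23). E16 replicate 4 held the lowest log2 value of each, -1.83 for miR-124 and -3.52 for miR-128. On the log2 scale miR-124 was at -0.65 ± 0.30 at E13 and -0.72 ± 0.90 at E16, and miR-128 at -2.31 ± 0.26 and -2.46 ± 0.78 (SD, n = 4 each). Together they held 0.707% to 0.960% of the signal at E13 and 0.333% to 1.40% at E16. Whether neurons in the sorted cells had a part in the values of miR-9 or miR-9* was not tested. In such samples fewer cells of a type and less RNA per cell cannot be told apart.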

How the data were processed

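RNA of sorted basal progenitors was hybridised to one-colour Agilent miRNA arrays, 4 at E13 and 4 at E16. The deposited scanner files hold processed signal as intensity per spot, made with Agilent Feature Extraction 10.7.3.1, with probe positions on mm9 per the file headers. Flags for spots well above background, saturated or outlying come from the same deposited files. The deposited value table holds log2 values of 1187 spots from the authors, each column with a median of 6.90 and in the same order as the processed signal (Spearman 1). Its further steps are not given in the sources used here.

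Spots flagged as outliers were left out (12 of the 320 spots of the miR-9 hairpin), the rest averaged per probe, and each miRNA was represented by its probe with the highest mean. Signals were divided by each array's 75th percentile over the 126 mouse probes that passed the background flag on each of the 8 arrays, floored at -5.96 on the log2 scale, and log2 was taken. Of the miRNAs, 152 had a probe passing that flag on 4 or more arrays and were tested with limma 3.58.1 in R 4.3.3, with Benjamini-Hochberg adjustment at 0.05. A probe passed where at least 0.5 of its spots were well above background. The arrays' number limits the precision.

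Arm ratios, ranks and shares were compared by two-sided exact permutation tests. The planned limma fit of arm ratios held 2 hairpins, so a fit of 17 hairpins was added after seeing the data, as were the combinations of a longer with a shorter probe and the arm ratio under quantile normalization. Leaving out an array, or using 1 slide, kept the tested miRNAs, scaling and probes. Other scalings, background correction, filters, slide and replicate blocks and the value table were tried as alternatives. The methods were tested on simulated data.

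The miRNAs named are both arms, the 5 most like each by the SD of the log2 ratio, a list of 17 related miRNAs, the 3 miRNAs above and below each arm in mean rank, and the hairpins with both arms on all 8 arrays; those of the 17 hairpins were named after their values were seen. The members and lists were chosen with earlier results of these data known. Of the related list, miR-212-3p was not matched by name, and miR-132 and miR-184 were well above background on no array. The sources used here do not describe the sort gate.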

Additional observations from a re-analysis of the deposited data

Results flagged for a closer look

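Among 46 groups of 4 arrays examined, 5 held an array set apart from the other 3 by an outlier rule, which passes about 1 in 20 by chance. The groups reuse the same signals as level, ratio, rank and share, so that this count cannot be judged against that rate. The log2 level of miR-9 was 1.94 on E13 replicate 2 against 2.35 to 2.44 on the other E13 arrays. The rank of miR-9 was 4 on E13 replicate 1 against 5 on the others, and the rank of miR-9* was 3 on E16 replicate 4 against 2. In both, the other 3 arrays tie, so that any step in rank passes the rule. The log2 ratio of the longer over the shorter miR-9 probe was 1.82 on E16 replicate 1 against 1.25 to 1.34 on the other E16 arrays. The log2 level of let-7d was -0.48 on E16 replicate 3 against -0.04 to -0.02.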

How the results depend on the processing

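The arm ratio of the miR-9 hairpin was higher at E16 under the alternatives run, from 0.096 to 0.73 on the log2 scale, but its call was not stable. By limma over 2 hairpins it passed with total signal per miRNA (0.51, adjusted p = 0.049). Leaving out each array gave 0.30 to 0.52, with limma adjusted p from 0.029 to 0.15, passing only without E13 replicate 3. The exact permutation p ran from 0.029 to 0.057, in the coarse steps of a test with 1 array fewer, and the stages did not overlap in any of these sets. With normexp it was 0.40 and did not pass the permutation test, and within slide 3 it was 0.14. Quantile normalization, added after seeing the data, gave 0.096 (exact permutation p = 0.77). The cause was not tested here or for the values below, apart from the shift that miRNAs share under scaling by all mouse probes.

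Scaling by all mouse probes changes each array's divisor, so that the log2 values of all miRNAs above the floor shift alike. Its log2 differences were 0.73 for miR-9, 1.15 for miR-9*, 0.75 for miR-124, 0.67 for miR-128, 0.64 for miR-19b, 0.18 for miR-34a and 0.16 for miR-92a. This scaling called 46 miRNAs higher and 16 lower, of the related list 5 and 2. Normexp called 5 higher and 2 lower, with 0 of the related list lower (against 6), and gave 0.066 for miR-124 and 0.00088 for miR-128. Quantile normalization called 21 higher and gave -0.057 for miR-9*, 0.024 for miR-124 and 0.033 for miR-128. In the main setting 39 of 152 miRNAs were lower. The count and the share were smaller in the deposited values (11 of 86, related list 1) and among miRNAs detected on all arrays (10 of 75, related list 1). With no filter 3 of the 14 tested members of the related list were lower, against 45 of all 611 miRNAs.

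Within slide 2 the log2 differences were 0.21 for miR-9, 0.054 for miR-124, 0.16 for miR-128, 0.20 for miR-19b and 0.073 for miR-34a, with 24 miRNAs lower, 3 of them in the related list. Its rank difference was -1 for miR-9*, and the share differences were 0.29 points for miR-9 and 3.68 for miR-9*. On slide 3 E16 has replicate 4 alone, which is assumed to vary like the pair of E13 arrays there. The slide 3 values, its count of lower miRNAs included, therefore describe that array and cannot be weighed like those of slide 2. Within slide 3 the log2 differences were -0.63 for miR-9 and -0.50 for miR-9*, the rank differences 2 for both arms, the share differences -2.17 and -3.68 points, and 87 miRNAs were lower.

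Leaving out each array gave log2 differences from -0.20 to 0.048 for miR-9 (positive only without E16 replicate 4), 0.098 to 0.49 for miR-9* (lowest without E13 replicate 2), -0.43 to 0.30 for miR-124 and -0.42 to 0.21 for miR-128. Rank differences ran from -0.42 to 0.58 for miR-9 and -0.083 to 0.58 for miR-9*. Share differences ran from -1.01 to -0.29 points for miR-9 and from 0.0067 to 2.05 for miR-9*, whose lowest was without E13 replicate 2. Calls ran from 9 to 17 higher and 28 to 53 lower, and from 3 to 6 lower in the related list. The fewest were without E13 replicate 1 in that list, and the most higher calls without E16 replicate 4.

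Same-numbered arrays did not deviate together (correlations -0.10, 0.07, 0.27 and -0.14), so the numbers do not pair them. With the replicate block the arm ratio difference was 0.42 (limma adjusted p = 0.17), with 10 miRNAs higher and 33 lower.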
